A study of Mus musculus with 4 samples.

Results

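Cholesterol and fatty acid synthesis was followed here through 33 genes, read from a count table of 55487 genes by their symbols. Each symbol had 1 row, and all 33 genes passed the filter on low counts. They were sorted by role into 16 enzymes of sterol synthesis, 4 genes of sterol sensing and transport, 8 genes of fatty acid synthesis and desaturation, and 5 genes of cholesterol ester storage, ester hydrolysis and efflux.

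RNA was sequenced from Langerhans cells isolated from mouse ears, in 4 libraries. There were 2 libraries from imiquimod-treated ears and 2 from Vaseline-treated ears, Vaseline being the negative control. All mice were wild type, and neither strain, age nor length of treatment is given in the labels. The comparison addresses how imiquimod, an agonist of Toll-like receptor 7 that is applied to mouse skin to cause a psoriasis-like inflammation, bears on the RNA of these cells. The labels do not say that the libraries came from separate animals, so the p-values below measure the spread between these libraries, which may be technical. Sample descriptions carry codes, with 1 letter pair for both Vaseline libraries and a different one for each imiquimod library, and their meaning is not stated.

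Cells make cholesterol from acetyl-CoA through the mevalonate pathway, and fatty acids from the same precursor through malonyl-CoA. When sterols in the endoplasmic reticulum run low, SREBP transcription factors are released from INSIG proteins, move to the nucleus and switch on genes of both pathways. Excess cholesterol is stored as esters or exported through ABC transporters, whose genes are targets of the liver X receptors, and in skin both lipid classes are also made in large amounts by keratinocytes and sebaceous glands.

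SREBP acts through promoter elements, so the promoter windows of the genes, running from 250 bases before to 50 after the start, were searched on both strands. Windows came from RefSeq (GRCm38.p6) and were found for 26 of the 33 genes, which have 33 windows between them. There was none for Abcg1, Fdft1, Fdps, Scd1, Scd2, Sqle and Stard4. The sterol regulatory element core TCACNCCAC was present in 1 gene, Hmgcs1, and in 1.24% of all 32851 promoter windows. The shorter core CACNCCAC, which overlaps it, was present in Hmgcs1 and Insig1 and in 6.24% of all windows. The CCAAT box, bound by NF-Y, was present in 22 of the 26 genes. Per window that was 69.7%, against 37.4% of all windows and 37.3% of the windows of genes above background (defined below). The GC box GGGCGG, bound by Sp1, was present in 20 of the 26 genes. Per window that was 66.7%, against 35.7% of all windows and 62.4% of the windows of genes above background. A match is a match of letters and not a shown binding site, and these shares were not tested.

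The windows of Hmgcs1 and Insig1 are shown because they hold the sterol element core, and those of Nceh1 and Soat1 because these genes had some of the lowest fold changes. The windows lie at chr13:119690101-119690400 (plus strand, Hmgcs1), chr5:28071162-28071461 (plus strand, Insig1), chr3:27182754-27183053 (plus strand, Nceh1) and chr1:156474279-156474578 (minus strand, Soat1). Each is written 5′ to 3′ on the strand of its gene, and capitals mark the motif matches.
Hmgcs1: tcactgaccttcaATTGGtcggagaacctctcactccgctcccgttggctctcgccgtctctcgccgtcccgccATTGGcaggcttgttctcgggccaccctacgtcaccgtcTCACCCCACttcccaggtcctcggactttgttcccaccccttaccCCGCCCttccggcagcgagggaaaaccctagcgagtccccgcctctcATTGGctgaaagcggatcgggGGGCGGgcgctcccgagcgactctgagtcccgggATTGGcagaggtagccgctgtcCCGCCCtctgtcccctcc
Insig1: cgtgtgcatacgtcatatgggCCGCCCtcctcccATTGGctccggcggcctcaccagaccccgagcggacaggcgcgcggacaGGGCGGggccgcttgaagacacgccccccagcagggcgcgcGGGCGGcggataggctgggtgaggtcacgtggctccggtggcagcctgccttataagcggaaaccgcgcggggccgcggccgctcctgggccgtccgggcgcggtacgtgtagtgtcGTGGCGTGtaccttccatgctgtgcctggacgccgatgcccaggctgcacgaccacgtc
Nceh1: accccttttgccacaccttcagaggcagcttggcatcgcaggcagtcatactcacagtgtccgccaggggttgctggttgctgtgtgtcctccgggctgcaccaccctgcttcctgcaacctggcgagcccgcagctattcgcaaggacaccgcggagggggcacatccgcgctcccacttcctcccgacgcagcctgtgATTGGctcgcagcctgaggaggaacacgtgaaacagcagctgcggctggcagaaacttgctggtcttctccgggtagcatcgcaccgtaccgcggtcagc
Soat1: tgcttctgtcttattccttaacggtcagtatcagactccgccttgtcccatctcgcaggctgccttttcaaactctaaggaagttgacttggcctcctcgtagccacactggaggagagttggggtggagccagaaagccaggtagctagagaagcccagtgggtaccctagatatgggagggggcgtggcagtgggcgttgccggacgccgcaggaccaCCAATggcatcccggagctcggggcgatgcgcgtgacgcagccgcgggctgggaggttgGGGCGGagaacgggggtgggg
In Hmgcs1 the sterol element core begins at position -137 from the start and is followed by CCAAT boxes on the opposite strand, which read ATTGG, at -45 and 10. In Insig1 the shorter core lies on the opposite strand at -9. Nceh1 held a single CCAAT box at -50 and no other match, while Soat1 held a CCAAT box at -30 and a GC box at 29.

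The libraries differed in depth and in how much signal lay outside expressed genes. Imiquimod libraries held 14902782 and 20690182 counts, and Vaseline libraries held 41998172 and 76028955. Levels below are CPM, counts scaled to a common library total after rescaling by TMM, edgeR's factor that centres most gene ratios between libraries. The TMM factors were 1.05 and 1.66 with imiquimod and 0.955 and 0.598 with Vaseline, so TMM and the plain library total set the groups on different scales. Background was measured as the median level of 1468 olfactory and vomeronasal receptor genes and was 0.505 and 0.765 CPM per exonic kilobase with imiquimod, against 0.392 and 0.157 with Vaseline. Genes above background are the 14903 genes whose level averaged at least 5 times it, and they were also fitted alone. That average is arithmetic, so a gene could pass through Vaseline 2 alone, where background was lowest. Col3a1 passed in this way, at 0.515 and 0.929 times background with imiquimod and 1.79 and 33.4 times with Vaseline. A set chosen by geometric mean had 12735 genes fitted. The 10 Langerhans cell markers were all above background. Their summed level was 8978 and 6145 CPM with imiquimod and 19932 and 53233 CPM with Vaseline, and 8 of the 10 were lower in both imiquimod libraries than in both Vaseline libraries, against 20.9% of all tested genes and 50.5% of genes above background. The langerin gene Cd207 stood at 1201 and 575 CPM with imiquimod and 2255 and 6883 CPM with Vaseline. RNA of keratinocytes was present in every library, with 5 basal markers summing to 14137 and 3615 CPM with imiquimod and 13824 and 16788 CPM with Vaseline. The 6 suprabasal markers summed to 1445 and 636 CPM with imiquimod and 3126 and 3141 CPM with Vaseline, lower without overlap, and their part in the members' values was not tested. The 7 neutrophil markers summed to 69.8 and 258 CPM with imiquimod and 11.9 and 48.3 CPM with Vaseline. Of these markers, 4 were under 5 times background. S100a9 alone stood at 39.2 and 152 CPM with imiquimod and 0.774 and 31.0 CPM with Vaseline. T cell markers summed to 104 and 89.8 CPM with imiquimod and 193 and 165 CPM with Vaseline. In such bulk samples, fewer cells of a type and less RNA per cell cannot be told apart.

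No gene of the 33 passed the test between imiquimod and Vaseline ears. By edgeR's quasi-likelihood test with Benjamini-Hochberg adjustment over 39439 tested genes, at an adjusted p threshold of 0.05, 0 members were called in either direction. Of all tested genes, 0.0634% were called higher and 0.137% lower. Without adjustment, 4 members had an edgeR p under 0.05 on the lower side (5.1% of all tested genes) and 0 on the higher side (8.63%). DESeq2 called 4 members lower, against 1.69% of all tested genes, and these were Nceh1, Scd2, Soat1 and Abcg1. It called 0 higher, against 0.0152%. The limma-voom test called Nceh1 and Scd2 lower, against 0.345% of all tested genes, and 0 higher, against 0.104%. In the refit of genes above background, which hold 31 of the members, edgeR called 0 members and 0% of all genes in that set in either direction. Unadjusted, the same 4 members were lower there and Lss was higher, against 4.78% and 5.43% of that set. DESeq2 called only Nceh1 in it, against 1.08% of that set lower and 0.689% higher.

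**Figure D1:**
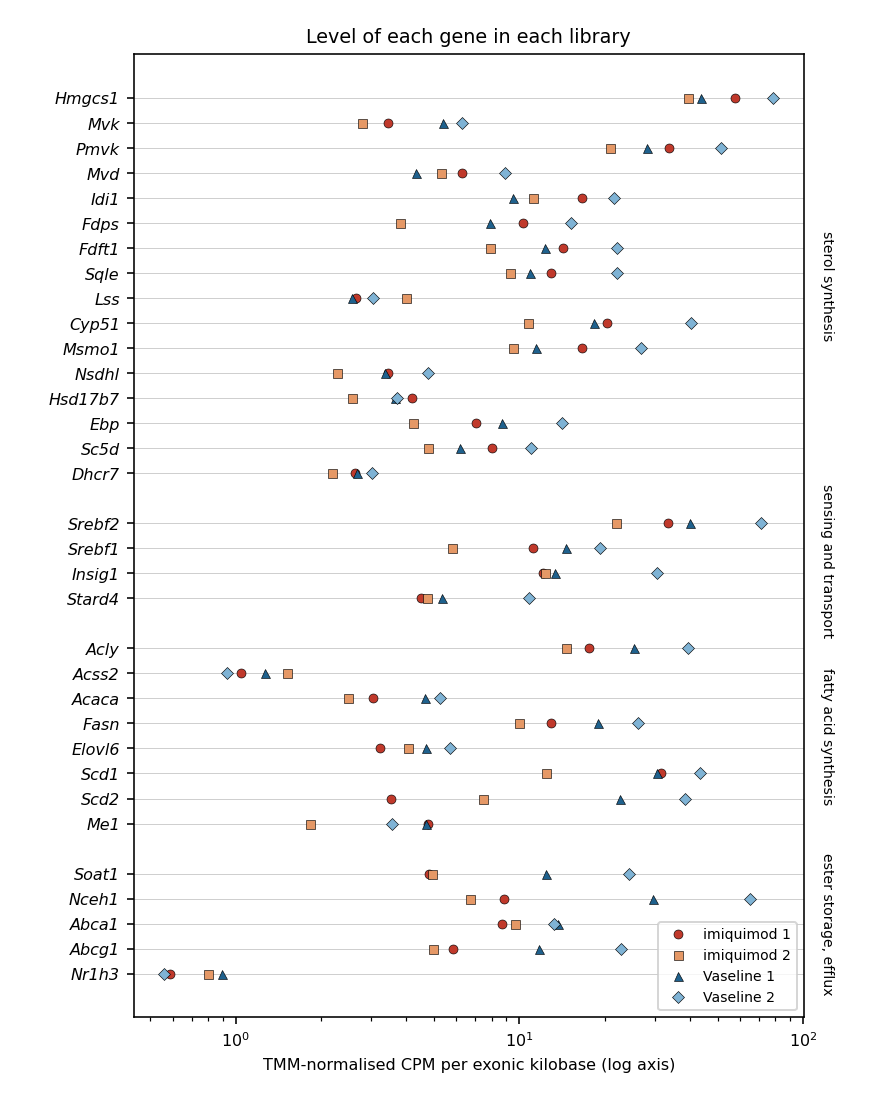
Level of each of the 33 genes in each of the 4 libraries, as TMM-normalised CPM per exonic kilobase on a log axis; each point is 1 library and genes are grouped by role. Both imiquimod libraries lie left of both Vaseline libraries for 16 genes, with the widest gaps at Nceh1, Scd2 and Soat1.

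The direction of most members depended on the scale. A change of scale multiplies all genes of a library alike, so distances between role groups stay nearly fixed by construction. With TMM over all tested genes, both imiquimod libraries lay below both Vaseline libraries for 16 of 33 members and above them for none, against 20.9% lower and 30.5% higher for the whole table. The same count over genes above background, on the same scale, was 50.5% lower and 5.51% higher, so the members' share of 16 in 33 was near theirs. A log2 fold change of -1 or below together with no overlap was met by 7 members, against 10.7% of all tested genes and 26.8% of genes above background. On plain library totals, 10 members lay higher with imiquimod in both libraries and 6 lower, against 45.6% and 7.42% for the whole table and 23.5% and 19.4% for genes above background. All 10 higher ones were sterol synthesis enzymes. The median log2 fold change, imiquimod over Vaseline, was -0.64 over the 33 members with TMM, 0.17 on library totals and 0.06 over the 31 members fitted among genes above background. The medians of all genes fitted moved too and were 0.41 with TMM, 1.30 on plain totals and 0.08 in the refit of genes above background. Set against these, the members stood at -1.05, -1.13 and -0.012. Genes above background had a median of -0.69 within the TMM fit of all genes, next to the members' -0.64.

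**Figure D2:**
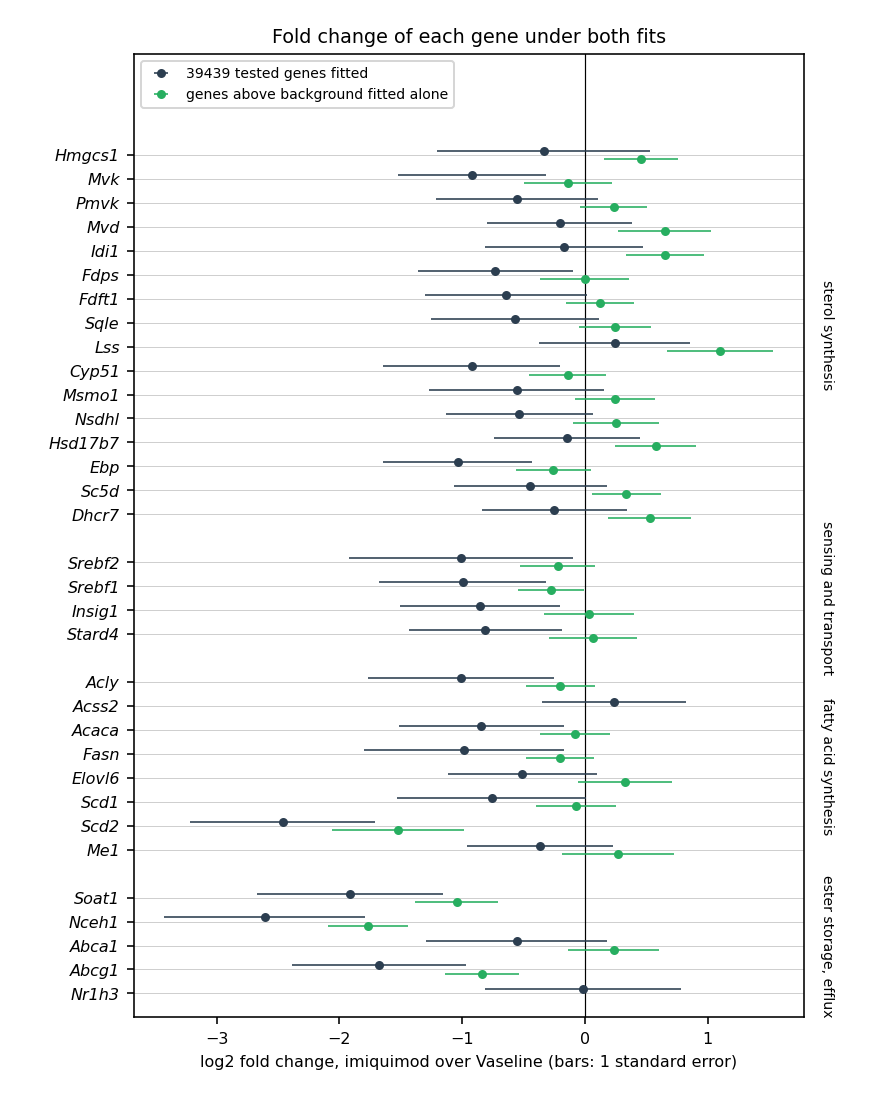
Log2 fold change of each gene, imiquimod over Vaseline, in the fit of all 39439 tested genes (dark) and of genes above background alone (green); bars are 1 standard error (SE). Acss2 and Nr1h3 lack a green point because they were not above background; Nceh1, Scd2, Soat1 and Abcg1 lie left of 0 in both fits.

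The 16 sterol synthesis enzymes had a median log2 fold change of -0.54 with TMM, 0.30 on library totals and 0.25 in the refit of genes above background. Of the 16, 1 was positive in the first, 13 in the second and 12 in the third. None passed the test in any of the fits. They ranged in the TMM fit from -1.04 for Ebp to 0.24 for Lss, the lanosterol synthase that closes the sterol rings.

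Hmgcs1, which makes HMG-CoA at the entry to the mevalonate pathway, was the most abundant member per exonic kilobase. Its level was 264 and 181 CPM with imiquimod, against 201 and 361 CPM with Vaseline. The groups overlapped on this scale. On library totals it stood at 277 and 299 CPM with imiquimod and 192 and 215 CPM with Vaseline, which do not overlap. Its log2 fold change was -0.34 (SE 0.87) with TMM and 0.46 (SE 0.30) among genes above background, with edgeR adjusted p of 0.831 and 0.595. Of its exonic bases, 12.1% are shared with Gm48342, a gene on the opposite strand, and the strand setting of the counting is not stated.

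Sqle, squalene epoxidase, the first oxygen-dependent step and a control point of the pathway, had 71.7 and 51.3 CPM with imiquimod and 60.3 and 122 CPM with Vaseline. The highest and lowest values were thus in Vaseline 2 and imiquimod 2, with the others between. Its log2 fold change was -0.57 (SE 0.69), with an edgeR adjusted p of 0.631, and 0.25 among genes above background. Ebp, the sterol isomerase late in the pathway, had 16.3 and 9.75 CPM with imiquimod and 20.1 and 32.6 CPM with Vaseline. Its groups did not overlap on either scale. The edgeR adjusted p was 0.403, at a log2 fold change of -1.04 (SE 0.61), and in the refit of genes above background the value was -0.26.

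The other 13 enzymes run from the mevalonate kinase Mvk to the reductase Dhcr7, the last step of one branch to cholesterol. In the TMM fit 12 of the 13 had negative fold changes. Mvk and Dhcr7 had groups that did not overlap, both lower with imiquimod, although Dhcr7 was higher on library totals. Scaled to library totals, Pmvk, Mvd, Idi1, Lss, Nsdhl, Hsd17b7, Sc5d and Dhcr7 were the enzymes besides Hmgcs1 and Sqle that lay higher in both imiquimod libraries. Of the 31 members in the refit of genes above background, Lss had the highest fold change, at 1.10 (SE 0.43) on the log2 scale and an edgeR adjusted p of 0.482. It was 0.31 without imiquimod 2 and 1.58 without imiquimod 1. Its level was 28.6 and 42.9 CPM with imiquimod and 27.8 and 32.9 CPM with Vaseline, so imiquimod 2 stood above the other libraries. Counts of Fdps, Fdft1 and Idi1 are less certain than the rest, since 26.2%, 26.5% and 25.3% of the 50-base windows in their transcripts also occur in transcripts of other genes. For Fdps these are mostly Gm43738, and for Fdft1 the cathepsin gene Ctsb on the opposite strand.

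The 4 genes of sterol sensing and transport had a median log2 fold change of -0.92 with TMM, -0.04 on library totals and -0.09 in the refit of genes above background. All 4 had groups that did not overlap on the TMM scale, lower with imiquimod, while on library totals this held for Srebf2 alone. Of genes above background, 50.5% were lower without overlap with TMM and 19.4% on library totals. Of all tested genes, 20.9% and 7.42% were. Srebf2, which encodes the SREBP that drives sterol synthesis genes, had 240.2 and 157 CPM with imiquimod and 287 and 512 CPM with Vaseline. Its log2 fold change was -1.01 (SE 0.91), at an edgeR adjusted p of 0.538, and -0.22 among genes above background. Srebf1, which encodes the SREBP forms that drive fatty acid synthesis, had 63.1 and 32.7 CPM with imiquimod and 82.1 and 108 CPM with Vaseline.

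The fold change of Srebf1 was close to that of Srebf2, at -0.997 (SE 0.68) with TMM and -0.28 among genes above background. Within each library, the log2 ratio of Srebf1 to Srebf2 counts was -1.93 and -2.27 with imiquimod and -1.81 and -2.25 with Vaseline, and the groups overlapped. Insig1 encodes the protein that holds SREBP in the endoplasmic reticulum and is itself an SREBP target. It had 37.6 and 38.0 CPM with imiquimod and 41.4 and 94.9 CPM with Vaseline. On this TMM scale Vaseline 1 lay near both imiquimod libraries and Vaseline 2 apart. On library totals Insig1 had 39.5 and 62.9 CPM with imiquimod and 39.5 and 56.7 CPM with Vaseline, which overlap. For Insig1 the log2 fold change was -0.85 (SE 0.65), at an edgeR adjusted p of 0.485, and 0.03 among genes above background. Stard4, a carrier of cholesterol between membranes, had -0.81 and 0.06 in the same fits.

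The 8 fatty acid genes had a median log2 fold change of -0.80 with TMM, -0.04 on library totals and -0.08 over the 7 fitted among genes above background. Of the 8, 5 had groups that did not overlap on the TMM scale, all lower with imiquimod, and 1 did so on library totals, Scd2. The shares of genes above background that were lower without overlap were 50.5% with TMM and 19.4% on library totals. Those of all tested genes were 20.9% and 7.42%. Acly, which makes cytosolic acetyl-CoA from citrate for both pathways, had 92.9 and 77.4 CPM with imiquimod and 134 and 208 CPM with Vaseline, a log2 fold change of -1.01 (SE 0.76). Acaca, acetyl-CoA carboxylase, the committed step, had 51.9 and 42.4 CPM with imiquimod and 79.4 and 89.6 CPM with Vaseline, a log2 fold change of -0.84 (SE 0.67). Fasn, fatty acid synthase, had 141 and 109 CPM with imiquimod and 208 and 287 CPM with Vaseline, a log2 fold change of -0.99 (SE 0.82).

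Acly, Acaca and Fasn each had both imiquimod libraries below both Vaseline libraries on the TMM scale, and overlap on library totals. With TMM, 20.9% of all tested genes and 50.5% of genes above background were lower in this way. The median log2 fold change of genes above background was -0.69 in that fit. For Acly, Acaca and Fasn the edgeR adjusted p-values were 0.478, 0.499 and 0.512. In the refit of genes above background their log2 fold changes were -0.20, -0.08 and -0.20. For Acaca, 30.4% of the 50-base windows in its transcripts also occur in transcripts of other genes. Elovl6, which lengthens palmitate, and Me1, the malic enzyme that supplies NADPH, stood at -0.51 and -0.37 with TMM. Counts of Me1 are uncertain too, with 28.3% of its 50-base windows also in other genes. Acss2, which makes acetyl-CoA from acetate, was at 2.07 and 1.99 times background with imiquimod and 3.24 and 5.96 times with Vaseline.

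The stearoyl-CoA desaturases Scd1 and Scd2, which make monounsaturated fatty acids, differed from each other. Scd2 had 19.2 and 40.7 CPM with imiquimod, against 124 and 210 CPM with Vaseline. Both imiquimod libraries lay far below both Vaseline libraries, on TMM and on library totals alike. Scd2 had a log2 fold change of -2.46 (SE 0.76), with adjusted p of 0.137 by edgeR, 0.00263 by DESeq2 and 0.0235 by limma-voom. Scd1 had 154 and 60.6 CPM with imiquimod and 149.97 and 212 CPM with Vaseline, a log2 fold change of -0.76 (SE 0.77) at an edgeR adjusted p of 0.577. Its groups overlapped, with imiquimod 1 at the level of Vaseline 1.

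The log2 ratio of Scd2 to Scd1 counts, which needs no scaling between libraries, was -3.001 and -0.577 with imiquimod and -0.28 and -0.02 with Vaseline. The groups did not overlap, but imiquimod 1 set most of the distance. With 2 libraries against 2, an exact two-sided permutation test cannot go below p = 0.333. In the refit of genes above background Scd2 stood at -1.52 (SE 0.54), with edgeR adjusted p of 0.478 and DESeq2 adjusted p of 0.150. Without imiquimod 2 it was -2.68 there with an edgeR adjusted p of 0.00303, and without imiquimod 1 it was -0.92 at 0.178, with the spread in both cases taken from the Vaseline libraries alone. Over all settings tried its adjusted p ran from 0.00263 to 1.00. Of the 50-base windows in the transcripts, 4.56% for Scd1 and 3.97% for Scd2 also occur in other genes, mostly in other desaturases.

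Scd1 is known for its high level in sebaceous glands, so sebocyte markers were set beside these values. Of 9 sebocyte markers, 7 were under 5 times background, among them the desaturase Scd3 at 1.67 to 5.03 times background over the 4 libraries. The 9 markers summed to 340 and 62.0 CPM with imiquimod and 240 and 217 CPM with Vaseline. Those not under 5 times background, Acsbg1 and Krt79, had TMM log2 fold changes of opposite sign, at 1.32 and -2.48. Acsbg1 had 271 and 22.5 CPM with imiquimod and 63.2 and 54.2 CPM with Vaseline. Krt79 had 46.3 and 8.20 CPM with imiquimod and 152 and 146 CPM with Vaseline. The part of sebocytes in the values of Scd1 and Scd2 was not tested. All 7 adipocyte markers were under 5 times background, the adipokine gene Adipoq at 0.824 to 2.24 times.

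The 5 genes of ester storage and efflux stood lowest, with a median log2 fold change of -1.68 with TMM, -0.78 on library totals and -0.94 over the 4 fitted among genes above background. Set against the medians of all genes fitted in the same settings, they stood at -2.09, -2.09 and -1.02. On the TMM scale 4 of the 5 had groups that did not overlap, lower with imiquimod, and 3 kept this on library totals, namely Nceh1, Soat1 and Abcg1. With TMM the share lower without overlap was 50.5% of genes above background and 20.9% of all tested genes. On library totals these shares were 19.4% and 7.42%.

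Nceh1, neutral cholesterol ester hydrolase, frees cholesterol from esters in macrophages and lies at chr3:27182965-27284608 (plus strand, GENCODE vM21). Its level was 46.5 and 35.3 CPM with imiquimod, against 155 and 342 CPM with Vaseline. Both imiquimod libraries lay below both Vaseline libraries, also on library totals, where the level was 48.8 and 58.4 CPM with imiquimod and 148 and 205 CPM with Vaseline. The fold change was the lowest of the 33, at -2.61 on the log2 scale (SE 0.82), with adjusted p of 0.153 by edgeR, 0.00217 by DESeq2 and 0.0425 by limma-voom. The refit of genes above background gave -1.77 (SE 0.33), with adjusted p of 0.409 by edgeR and 0.00120 by DESeq2. Over all settings tried its log2 fold change ran from -3.18 to -1.44 and its adjusted p from 0.00120 to 1.00. None of the 50-base windows in its transcripts occurs in another gene.

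Soat1 is the acyltransferase that makes the esters which Nceh1 splits. Its level was 47.2 and 48.2 CPM with imiquimod, against 122 and 238 CPM with Vaseline. On the TMM scale the imiquimod libraries were nearly equal and both far below the Vaseline libraries. On library totals Soat1 stood at 49.6 and 79.7 CPM with imiquimod and 116 and 142 CPM with Vaseline, still without overlap. Soat1 had a log2 fold change of -1.91 (SE 0.76), with adjusted p of 0.286 by edgeR and 0.0172 by DESeq2, and -1.05 (SE 0.34) among genes above background, with an edgeR adjusted p of 0.472. Without imiquimod 2, among genes above background, the spread came from the Vaseline libraries alone, and the lone imiquimod library was assumed to vary like them. In that fit edgeR called Nceh1, Scd2 and Soat1 lower, against 2.92% of the 14718 genes fitted. Soat1 then had an adjusted p of 0.0380 and Nceh1 of 0.0182, while leaving out the same library in the fit of all genes gave each of the 3 an edgeR adjusted p of 1.00. Over all settings tried the adjusted p of Soat1 ran from 0.0172 to 1.00.

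Abcg1 and Abca1 export cholesterol to lipoproteins and are both targets of the liver X receptors. Abcg1 had 42.7 and 36.1 CPM with imiquimod and 85.5 and 166 CPM with Vaseline. The log2 fold change of Abcg1 was -1.68 (SE 0.71), with adjusted p of 0.312 by edgeR and 0.0393 by DESeq2, and -0.84 among genes above background. Its adjusted p over all settings ran from 0.0393 to 1.00. Abca1 had 90.1 and 100.1 CPM with imiquimod and 142 and 138 CPM with Vaseline, a log2 fold change of -0.56 (SE 0.74) at an edgeR adjusted p of 0.664. Groups of both genes did not overlap on the TMM scale, but on library totals Abca1 had 94.6 and 166 CPM with imiquimod and 136 and 82.3 CPM with Vaseline, which overlap.

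Abcg1 was thus lower against Abca1 with imiquimod, at log2 count ratios of -1.08 and -1.47, against -0.73 and 0.27 with Vaseline. Nr1h3, which encodes liver X receptor alpha, was near background in every library. It stood at 1.16 and 1.05 times background with imiquimod and 2.28 and 3.58 times with Vaseline, so no change in it was detectable at this depth.

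Role groups were then set against each other within each library, so that no scaling between libraries enters. The median level per exonic kilobase of the sterol synthesis enzymes minus that of the ester storage and efflux genes was 0.63 and 0.02 on the log2 scale with imiquimod, against -0.59 and -0.64 with Vaseline. These groups did not overlap, and the exact permutation test cannot go below p = 0.333. The enzymes minus the fatty acid genes gave 1.15 and -0.13 with imiquimod and -0.19 and 0.27 with Vaseline, which overlap. The other contrasts overlapped as well.

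**Figure D3:**
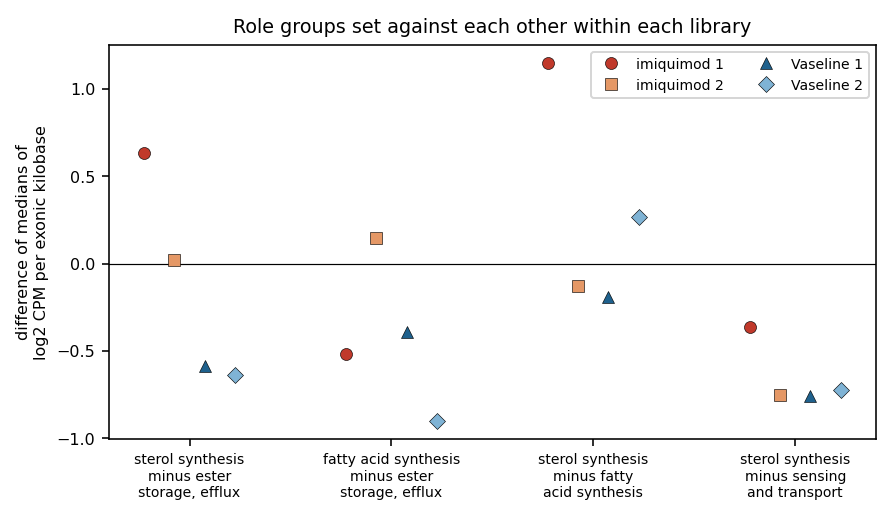
Difference between the medians of role groups within each library, on the log2 scale of CPM per exonic kilobase; each point is 1 library. Sterol synthesis minus ester storage and efflux lies at 0.63 and 0.02 in the imiquimod libraries and at -0.59 and -0.64 in the Vaseline libraries, while the other contrasts overlap.

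Within-library ratios of 6 gene pairs, picked after the values had been seen, are given as a description and lend the contrast no support. The log2 ratio of Hmgcs1 to Nceh1 counts was 2.51 and 2.36 with imiquimod and 0.37 and 0.07 with Vaseline, a wide gap next to the spread within groups. The ratio of Sqle to Fasn was -0.98 and -1.09 with imiquimod and -1.79 and -1.23 with Vaseline, which lie closer together. Ratios of Hmgcs1 to Nceh1, Sqle to Fasn, Scd2 to Scd1 and Abcg1 to Abca1 did not overlap between the groups, and those of Srebf1 and of Insig1 to Srebf2 did.

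Since Langerhans cell markers were lower with imiquimod, the same genes were set beside Csf1r, a receptor gene of macrophages and Langerhans cells, whose level was 196 and 226 CPM with imiquimod and 833 and 1836 CPM with Vaseline. Per 100 Csf1r counts, Nceh1 had 23.7 and 15.6 with imiquimod and 18.6 and 18.6 with Vaseline, and Scd2 had 9.80 and 18.0 with imiquimod and 14.9 and 11.4 with Vaseline. Both overlapped on this scale. Soat1 had 24.1 and 21.4 per 100 Csf1r counts with imiquimod and 14.6 and 12.9 with Vaseline, and Abcg1 had 21.8 and 16.0 with imiquimod and 10.3 and 9.05 with Vaseline.

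These last genes were therefore higher per Csf1r count with imiquimod, the opposite of their direction per library total. Hmgcs1 had 135 and 80.2 per 100 Csf1r counts with imiquimod and 24.1 and 19.6 with Vaseline. Per 1000 summed counts of the 10 Langerhans cell markers, Nceh1 had 5.18 and 5.74 with imiquimod and 7.79 and 6.43 with Vaseline, lower without overlap. On that scale Abcg1 had 4.76 and 5.87 with imiquimod and 4.29 and 3.12 with Vaseline, and Soat1 and Scd2 overlapped. Hmgcs1 had 29.4 in both imiquimod libraries and 10.1 and 6.77 in the Vaseline libraries. Srebf2, Fasn, Scd1 and Abca1 were also higher in both imiquimod libraries on that scale, without overlap. The part of the cell mixture in the values per library total was not tested.

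**Figure D4:**
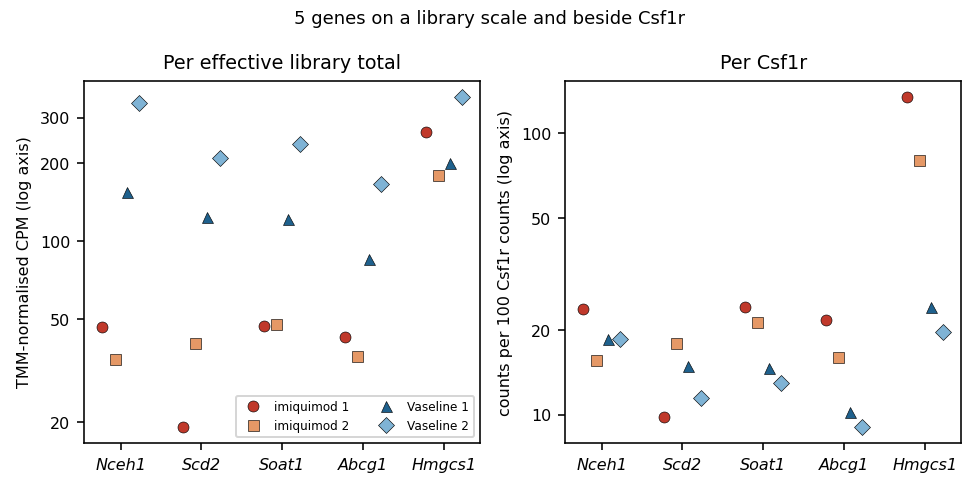
Level of 5 genes in each library, as TMM-normalised CPM (left) and as counts per 100 Csf1r counts (right), on log axes; each point is 1 library. On the left Nceh1, Scd2, Soat1 and Abcg1 are lower in both imiquimod libraries, while on the right Nceh1 and Scd2 overlap and Soat1, Abcg1 and Hmgcs1 are higher in both imiquimod libraries.

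Compared per exonic kilobase over the 4 libraries, the order of the members' mean levels began with Hmgcs1 at 54.8 CPM per exonic kilobase, Srebf2 at 41.7, Pmvk at 33.6 and Scd1 at 29.5. Neighbours among these did not differ beyond the spread between libraries, which for Hmgcs1 ran from 39.3 to 78.5. The order ended with Dhcr7 at 2.63, Acss2 at 1.19 and Nr1h3 at 0.71 CPM per exonic kilobase. Nceh1 held different places in the order of the groups, with 8.85 and 6.72 CPM per exonic kilobase with imiquimod and 29.5 and 65.2 with Vaseline.

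Further genes of the same pathways, in 6 lists, had 0 members called by edgeR in either direction, against 0.0634% higher and 0.137% lower of all tested genes. DESeq2 called 1.69% of all tested genes lower and 0.0152% higher. Genes above background had a median log2 fold change of -0.94 in that DESeq2 fit and -0.69 in the edgeR fit with TMM. Fold changes of these lists are from the edgeR fit with TMM unless the refit is named. Of 11 other sterol synthesis genes, DESeq2 called 0, and the gene of smallest p, Dhdds, had a log2 fold change of -1.33. Of 10 genes of SREBP processing it called 0, with Fbxw7 at -1.17 and Insig2 at -0.96. Of 14 genes of sterol uptake and trafficking, DESeq2 called 2 lower. These were Cd36, a scavenger receptor, at -2.14 (adjusted p of 0.00812 by DESeq2 and 0.121 by edgeR), and Lipa, the lysosomal ester hydrolase. Lipa stood at -1.59 (adjusted p of 0.0487 by DESeq2 and 0.280 by edgeR). With imiquimod both were under 5 times background, Cd36 at 2.08 and 1.70 times and Lipa at 3.32 and 2.16 times. With Vaseline Cd36 was at 15.2 and 29.2 times and Lipa at 9.76 and 39.8 times.

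Among 19 other fatty acid genes DESeq2 called 4 lower, against 1.69% of all tested genes. Acsl5, which activates long-chain fatty acids, stood at 62.7 and 42.4 CPM with imiquimod, against 211 and 512 CPM with Vaseline, without overlap. Its log2 fold change was -2.79 (SE 0.89), with adjusted p of 0.168 by edgeR and 0.00145 by DESeq2. The others were the desaturases Fads2 and Fads1, both at -1.75, and the elongase Elovl5 at -1.88. In the refit of genes above background DESeq2 called only Acsl5 of all 6 lists, with an adjusted p of 0.000292. DESeq2 called 1.08% of that set lower. The edgeR log2 fold change of Acsl5 in the refit was -1.95, at an edgeR adjusted p of 0.409.

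Of 11 liver X receptor partners, targets and oxysterol enzymes, DESeq2 called 1 lower, Arl4c at -1.86, against 1.69% of all tested genes. The genes of smallest edgeR p in this list were Cyp7b1 at 2.68, which was near background at 0.454 to 3.09 times, and Rxra at -1.501. Of 12 triglyceride and droplet genes DESeq2 called 2 lower, Mgll at -1.77 and Dgat2 at -1.86, against the same 1.69%. Medians of the 6 lists ran from -0.93 to -0.67 with TMM, next to -0.64 for the 33 members, and from -0.23 to 0.04 among genes above background.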

How the data were processed

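The 33 genes and the lists used were chosen with earlier results of these data known. Per the labels' protocols, 10 to 70 ng of total RNA per sample went into SMARTer stranded pico-input libraries. StringTie, SAMtools, HISAT2 and Trimmomatic are the tools listed, per the submitters' processing notes, with build GRCm38; versions, annotation and strand setting are not given in the sources used here. The deposited values are whole-number counts per gene without scaling, and the authors' further steps are not stated.

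Counts were compared with edgeR 4.0.16 (R 4.3.3), using filterByExpr (minimum count 10, minimum total 15; 16048 genes left out), TMM factors and the two-sided quasi-likelihood test (legacy set to FALSE). Benjamini-Hochberg adjustment ran over all tested genes at a threshold of 0.05. SE was computed by dividing the log2 fold change by the root of F. The common dispersion was 0.369, and libraries of a group differed far beyond counting noise, with a chi-square of 88.1 per degree of freedom for imiquimod and 95.1 for Vaseline. Alternatives were DESeq2 1.42.0, limma-voom 3.58.1, other factors and filters, a replicate block, leaving out each library and, chosen after seeing the data, the older quasi-likelihood form, a crossed pairing and leaving out each library among genes above background. That set was refitted alone, and 14506 of its genes passed the filter. Exon unions came from GENCODE vM21, which 55227 of the 55487 genes matched, and overlaps from bedtools 2.31.1. The fit was tested on simulated data.

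Values in every library are given for members called by edgeR or DESeq2, for rate-setting enzymes and regulators, and for members whose groups do not overlap with an absolute log2 fold change of at least 1. Of the pathway lists, the 2 genes of smallest p are named, and of the marker lists the defining markers; a gene that met this rule is not reported here. Lss, the pathway genes that DESeq2 called and the gene ratios were named after their values were seen.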

Additional observations from a re-analysis of the deposited data

How the results depend on the processing

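All 33 members stayed uncalled by edgeR under RLE and upper-quartile factors, library totals, no filter, a stricter filter, summed symbols, the older quasi-likelihood form and each library left out of the fit of all genes. Lower calls were 4 by DESeq2, 2 by limma-voom and 1 by DESeq2 among genes above background. With each library left out among genes above background they ran from 0 to 3, the 3 coming without imiquimod 2, where the Vaseline libraries alone gave the spread. Median log2 fold changes, given as sterol synthesis, sensing, fatty acid, ester and efflux, and all members, moved to 0.30, -0.039, -0.042, -0.78 and 0.17 on library totals. They moved to 0.25, -0.094, -0.078, -0.94 and 0.065 among genes above background, to 0.29, -0.054, -0.045, -0.90 and 0.11 with that set chosen by geometric mean, and to 0.22, -0.13, -0.11, -0.98 and 0.031 with DESeq2 on that set. Upper-quartile factors gave -0.46 for fatty acid genes. Leaving out each library gave ranges of -0.97 to -0.11, -1.40 to -0.40, -1.23 to -0.61, -2.19 to -1.14 and -1.10 to -0.27 among all genes. Among genes above background the ranges were 0.12 to 0.37, -0.34 to 0.12, -0.32 to -0.069, -1.29 to -0.71 and -0.066 to 0.19. The cause was not tested. The sign changed for 18 members with plain totals and for 16 in the fit of genes above background.

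Same-numbered libraries deviated in opposite directions (correlation -0.331). With 2 libraries a group the deviations mirror each other, so this value cannot decide whether same-numbered libraries were paired. The replicate block called 0 members and, over all genes, 1 higher and 0 lower, with a member median of -0.65. A crossed pairing, added after the data were seen, called 0 members and 0 genes. Over all genes, edgeR called 25 higher and 54 lower, against 6 and 667 by DESeq2, 41 and 136 by limma-voom, 0 and 0 without a filter, 17 and 14 with RLE factors, 8 and 5 on library totals, 41 and 56 with upper-quartile factors and 3 and 5 with the older quasi-likelihood form. They were 15 and 6 without imiquimod 1, 8 and 0 without imiquimod 2, 2959 and 317 without Vaseline 1 and 28 and 17 without Vaseline 2. With 2 libraries a group and a biological coefficient of variation of 0.607, small differences were not detectable.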
